A study of Mus musculus with 6 samples.

Results

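The Hox genes are described here in dorsal root ganglia, the sensory ganglia beside the spinal cord, of mouse embryos at stage E13.5. Members were the rows whose symbol is Hoxa, Hoxb, Hoxc or Hoxd followed by a number, which gave 38 of the 17971 genes in the table. Of these, 35 had enough counts to be tested, among 14338 genes tested in all; Hoxb1, Hoxb13 and Hoxd13 had too few, and Hoxa13 was not analysed here. The 3 cKO libraries came from Wnt1-cre+/-;Ybx1fl/fl embryos, in which Cre recombinase, active in the neural crest lineage, deletes the floxed Ybx1 gene. The 3 Ctrl libraries came from Ybx1fl/fl littermates without Cre. Both groups thus carried the floxed allele on both chromosomes, all embryos were male by the series' description, and the labels do not say how many ganglia, from which levels, or how many embryos went into a library. No group had Cre with an intact Ybx1, so effects of Cre itself and of the Ybx1 deletion cannot be told apart.

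Hox genes encode homeodomain transcription factors that give cells along the body axis their regional identity. They lie in clusters, and the order of the genes along a cluster matches the order of their expression domains from head to tail, a rule called collinearity. Genes at the same place in different clusters form a paralog group, numbered from 1 at the anterior end to 13 at the posterior end. In sensory ganglia the Hox genes expressed therefore depend on the axial level of the ganglion, and the mixture of paralog groups in a pooled sample is a guide to the levels it holds. In the neural tube, genes of groups 5 to 8 are known from brachial levels, Hoxc9 from thoracic levels and the group 10 genes from lumbar levels, while group 13 genes mark the tail end.

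Libraries held 16464264 to 17446385 estimated counts. Ybx1, the gene of an RNA-binding Y-box protein, stood at 809 to 927 CPM (counts scaled to a common library size) in Ctrl and at 108 to 137 CPM in cKO. Its log2 fold change was -2.80 (SE 0.10, edgeR adjusted p 8.42e-08), so every library went with its label. Markers of sensory neurons were present in all libraries, as 12 genes summing to 8321 to 8634 TPM (the authors' values scaled for transcript length and library size) in Ctrl and 8028 to 9080 TPM in cKO; 3 of them, among them Isl1 (log2 fold change -0.21, edgeR adjusted p 0.00833), were lower with the replicate number in the model. The 8 glia markers summed to 2420 to 2455 TPM in Ctrl and 2579 to 2603 TPM in cKO, and 5 of them were higher with the replicate number in the model. In that model 5.33% of all genes passed an edgeR adjusted p under 0.05 (1.76% higher and 3.56% lower in cKO). Without the replicate number no marker of either list passed. In cKO 1 the 11 erythroid markers summed to 185738 counts, against 44676 to 78086 in the other 5 libraries, and the 12 macrophage markers summed to 292 TPM against 179 to 220. Same-numbered libraries share the start of their sample code, and their deviations from the group means correlated at 0.18 to 0.33, so the number was used as a pairing. The model with the replicate number as a term is called the model with the block.

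All 38 members were matched to a RefSeq gene of GRCm38.p6. The HoxA members lie at chr6:52155367-52245810, the HoxB members at chr11:96194316-96368254, the HoxC members at chr15:102921131-103036856 and the HoxD members at chr2:74668225-74765142. Within HoxD, 3 of the 8 tested genes had cKO and Ctrl values that did not overlap, beside 16.6% of all genes. Hoxd1 was lower in cKO (8.77% of all genes were), and Hoxd8 and Hoxd9 were higher (7.83% were). The 250 bases before the start of each are shown because these genes share a cluster and a strand but lay on different sides of 0. They are credited to RefSeq (GRCm38.p6, plus strand), and capitals mark ATTGG or its reverse complement CCAAT, the core of the Y-box after which Ybx1 was named.
Hoxd1, chr2:74762730-74762979: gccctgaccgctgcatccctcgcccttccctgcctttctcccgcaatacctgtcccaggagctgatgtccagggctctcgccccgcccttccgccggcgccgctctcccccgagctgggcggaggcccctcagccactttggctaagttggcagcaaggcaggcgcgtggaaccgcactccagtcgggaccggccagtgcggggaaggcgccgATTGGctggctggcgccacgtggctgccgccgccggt
Hoxd8, chr2:74704365-74704614: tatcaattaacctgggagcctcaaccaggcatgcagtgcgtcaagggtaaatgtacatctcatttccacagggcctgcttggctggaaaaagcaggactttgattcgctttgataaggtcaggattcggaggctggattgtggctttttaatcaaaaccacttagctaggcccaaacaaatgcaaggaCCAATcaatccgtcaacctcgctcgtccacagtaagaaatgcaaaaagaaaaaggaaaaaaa
Hoxd9, chr2:74697513-74697762: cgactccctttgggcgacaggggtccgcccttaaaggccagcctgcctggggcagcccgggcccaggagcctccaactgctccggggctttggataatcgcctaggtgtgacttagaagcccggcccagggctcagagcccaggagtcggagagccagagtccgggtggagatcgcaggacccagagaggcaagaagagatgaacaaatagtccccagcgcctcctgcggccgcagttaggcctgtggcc

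The window of Hoxd1 held 24 CpG dinucleotides and 71.6% G and C, that of Hoxd9 13 CpG and 65.2%, and that of Hoxd8 6 CpG and 44.4%. Over all 32851 windows of this length the median was 6 CpG, and over the 23 windows of Hox members it was 12. Those 23 windows covered 21 of the 38 members, with no window for Hoxc9. ATTGG, searched on both strands, was in 13 of the 23 Hox windows (56.5%) and in 33.85% of all windows. Hoxd1 and Hoxd8 each held it at 1 place and Hoxd9 at none. A match is a run of letters and no evidence of binding.

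Libraries of both genotypes held Hox transcripts of every paralog group from 1 to 11 at TPM values that peaked in the middle of the series. Summed over its members, group 6 was highest, at 121 to 139 TPM in Ctrl and 118 to 154 TPM in cKO. Groups held 2 to 4 members each (3 in group 6, 2 in group 7 and 4 in group 9). The order of the sums therefore depends in part on the number of genes. Groups 7 and 9 followed with means over all libraries of 109 ± 8.09 and 105 ± 8.08 TPM (SD, n = 6 libraries), a difference smaller than their spread. Group 3 stood at 91.0 ± 11.7 TPM, group 8 at 83.4 ± 8.45 and group 4 at 74.4 ± 9.26. Group 5 had 72.3 ± 10.1 TPM and group 10 had 70.2 ± 10.6. Group 8 was above group 4 in every library, while the order of the other neighbours among these changed between libraries. Group 2 was at 39.9 ± 1.87 TPM and group 1 at 24.5 ± 3.57 TPM. The fall came after group 10: group 11 had 16.4 ± 2.06 TPM, group 12 had 5.13 ± 2.16 and group 13 had 2.76 ± 0.92. Groups 3 to 10 thus carried most of the Hox signal, and groups 12 and 13 little.

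**Figure D1:**
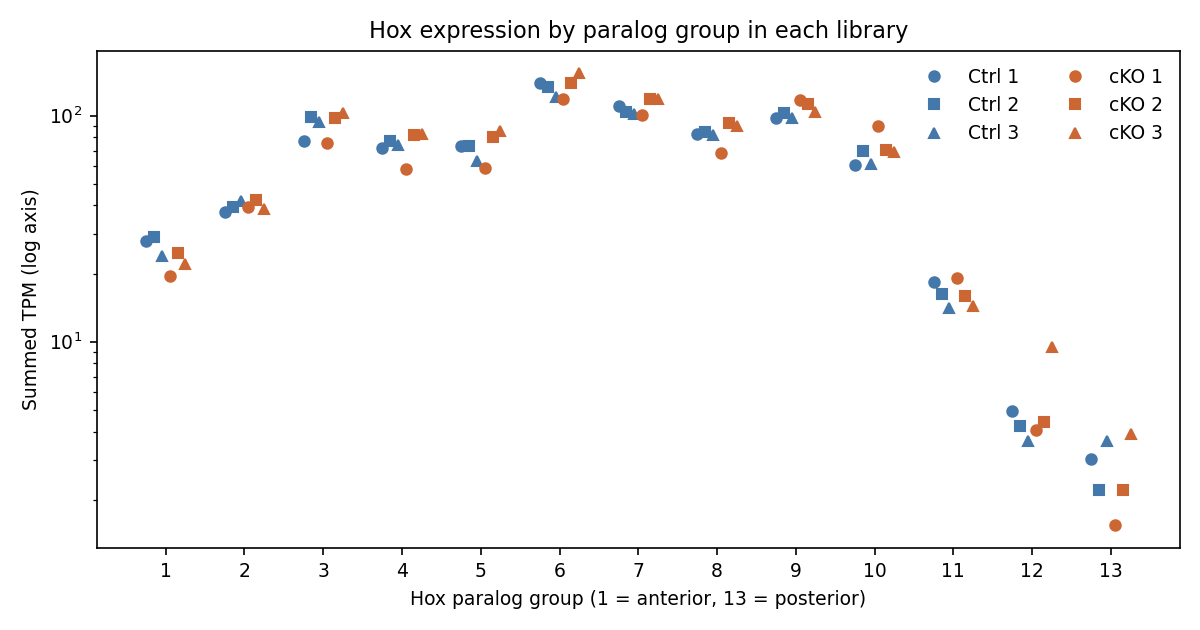
Summed TPM of each Hox paralog group (log axis) in each library, Ctrl in blue and cKO in orange, with circles, squares and triangles for replicates 1, 2 and 3. Values peak at group 6 and drop from group 10 (70.2 TPM on average) to group 13 (2.76 TPM), with cKO 1 highest in group 10 and cKO 3 highest in group 12.

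Single members differed widely within a paralog group. In group 1, Hoxd1 led (23.7 ± 3.47 TPM, SD, n = 6) and Hoxb1 had a total of 1 count, in Ctrl 3. The leading members elsewhere were Hoxb2 (30.7 TPM), Hoxb3 (51.2), Hoxd4 (20.4), Hoxa5 (40.2), Hoxb6 (88.0), Hoxb7 (62.2), Hoxb8 (49.2), Hoxa9 (40.7), Hoxa10 (33.4), Hoxc11 (8.58), Hoxc12 (4.52) and Hoxc13 (2.54), as means over all libraries. Hoxb6 was thus the most abundant Hox transcript, in every library. At the tail end Hoxd13 had 0 to 3 counts and Hoxb13 0 to 5 counts per library, whereas Hoxc13 had 33 to 77. By cluster, HoxB summed to 349 ± 23.8 TPM, HoxA to 222 ± 14.9, HoxC to 136 ± 8.48 and HoxD to 120 ± 9.54. All members together made up 806 ± 27.7 TPM in Ctrl and 849 ± 68.4 TPM in cKO (SD, n = 3), a difference within the spread.

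The comparison of cKO with Ctrl asked which transcripts differ when Ybx1 is deleted in the neural crest lineage. No Hox gene passed the edgeR quasi-likelihood test without the block at a Benjamini-Hochberg adjusted p under 0.05 over all genes, where 0.481% of all genes passed (0.112% higher and 0.37% lower in cKO). At an unadjusted p under 0.05 there were 5 of 35 members, against 10.7% of all genes; DESeq2 and limma-voom also called none. The log2 fold changes of the members ran from -0.31 to 0.47 with a median of 0.05, beside 0.00 for all genes tested, and 23 of 35 were positive. With the block 2 members passed, 1 in each direction: Hoxd1 was lower and Hoxc9 higher. That is 2 of 35 where 5.33% of all genes passed (1.76% higher and 3.56% lower), so the share of Hox genes called was close to that of all genes. Groups did not overlap for 4 members (Hoxd8 and Hoxd9 higher in cKO, Hoxd1 and Hoxb9 lower), beside 16.6% of all genes (7.83% higher and 8.77% lower). At an unadjusted p under 0.05 with the block there were 7 members, beside 18.7% of all genes. Differences were small and mixed in sign: 9 of 35 members had the same sign in all 3, beside 39.9% of all genes.

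**Figure D2:**
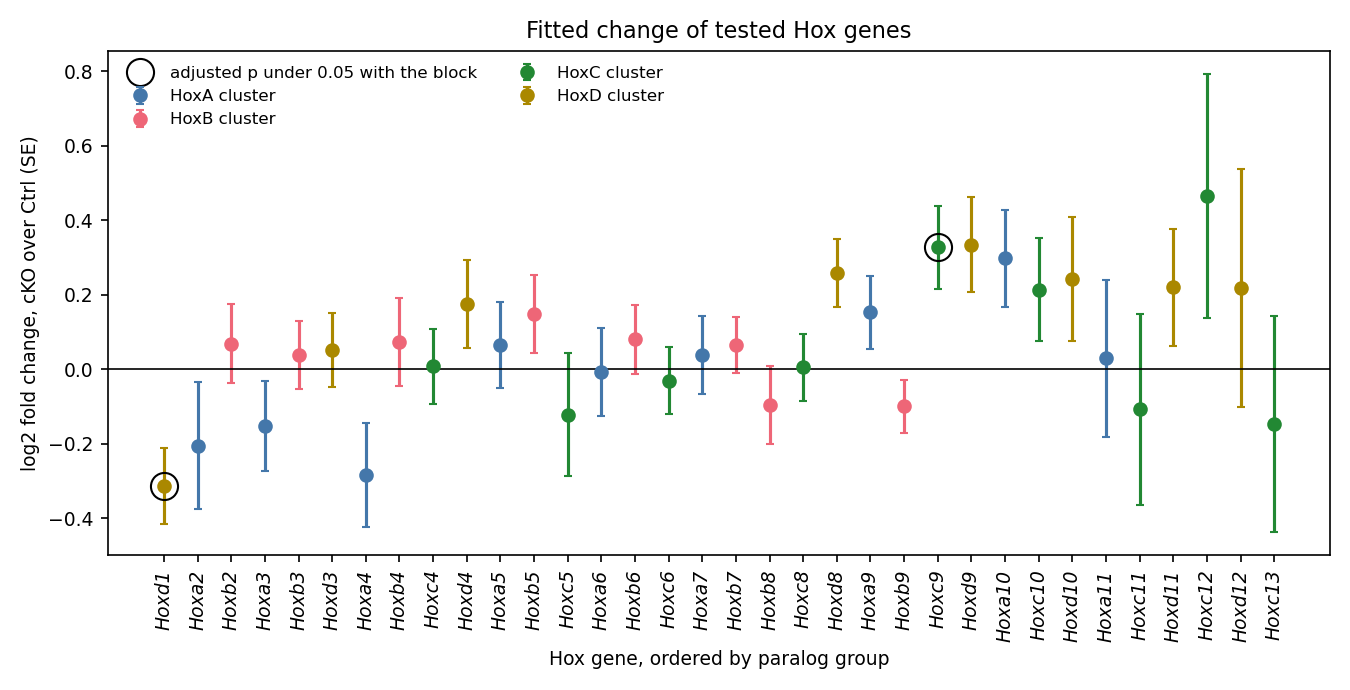
Log2 fold change of cKO over Ctrl with its SE from the edgeR fit without the block (6 libraries) for 34 of the 35 tested Hox genes, ordered by paralog group and coloured by cluster. Circled are Hoxd1 (-0.31) and Hoxc9 (0.33), which passed only when the block was added.

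Hoxd1 (gene identifier 15429, chr2:74762980-74765142) is the most anterior gene of HoxD and is known as a Hox gene of nociceptive, pain-sensing neurons in the mouse. It stood at 25.3, 24.4 and 20.3 CPM in Ctrl 1, 2 and 3 and at 18.0, 20.3 and 18.1 CPM in cKO 1, 2 and 3. Every cKO value lay below every Ctrl value, though Ctrl 3 and cKO 2 were nearly equal. The log2 fold change was -0.31 (SE 0.10, edgeR adjusted p 0.251), and with the block it was -0.31 (SE 0.08, edgeR adjusted p 0.0343), lower in 3 of 3 pairs. The blocked call was lost without the libraries numbered 1 (log2 fold change -0.22, edgeR adjusted p 0.142) and without those numbered 2 (-0.34, adjusted p 0.127). In bulk ganglia, fewer cells of a type and less RNA per cell cannot be told apart.

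Groups 9 and 10 hold the Hox genes of thoracic and lumbar levels, and the log2 fold change was above 0 for 6 of their 7 members (median 0.24, beside 0.00 for all genes). Without cKO 1 the median was 0.053, with 5 of 7 above 0. Hoxc9 (gene identifier 15427, chr15:102977032-102984444) stood at 22.7, 21.0 and 20.2 CPM in Ctrl and at 30.7, 26.98 and 22.4 CPM in cKO. Each cKO library was above its own numbered Ctrl, but cKO 3 lay below Ctrl 1. The log2 fold change was 0.33 (SE 0.11, edgeR adjusted p 0.278), and with the block 0.32 (SE 0.08, edgeR adjusted p 0.0201). The blocked call held without the libraries numbered 1 (0.26, edgeR adjusted p 0.0469) and without those numbered 3 (0.40, 0.00337), and was lost without those numbered 2 (0.30, 0.16). With the block, 4, 1 and 5 members were called without the libraries numbered 1, 2 and 3, where 8.72%, 1.81% and 5.82% of all genes were; without the block none was, where 5.09%, 0.0556% and 0.0139% of all genes were.

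Hoxd9 stood at 10.2, 10.4 and 10.8 CPM in Ctrl and at 15.9, 12.2 and 11.4 CPM in cKO. Its groups did not overlap, and cKO 1 was far above the rest (log2 fold change 0.34, SE 0.13, edgeR adjusted p 0.36). Hoxa10 was also highest in cKO 1 but its groups overlapped, with 35.7, 34.8 and 34.3 CPM in Ctrl and 54.0, 39.9 and 34.9 CPM in cKO (log2 fold change 0.30, SE 0.13, edgeR adjusted p 0.444). Without cKO 1 its log2 fold change was 0.10. Hoxa9, the most abundant gene of group 9, had 59.1 to 66.7 CPM in Ctrl and 81.4, 68.1 and 61.2 CPM in cKO (0.15, SE 0.10). Hoxd10 and Hoxc10 were likewise highest in cKO 1, at 17.9 and 29.5 CPM, with overlapping groups. Hoxb9 went the other way, at 36.3 to 38.8 CPM in Ctrl and 33.8 to 36.0 CPM in cKO, without overlap (-0.10, SE 0.07, edgeR adjusted p 0.70).

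**Figure D3:**
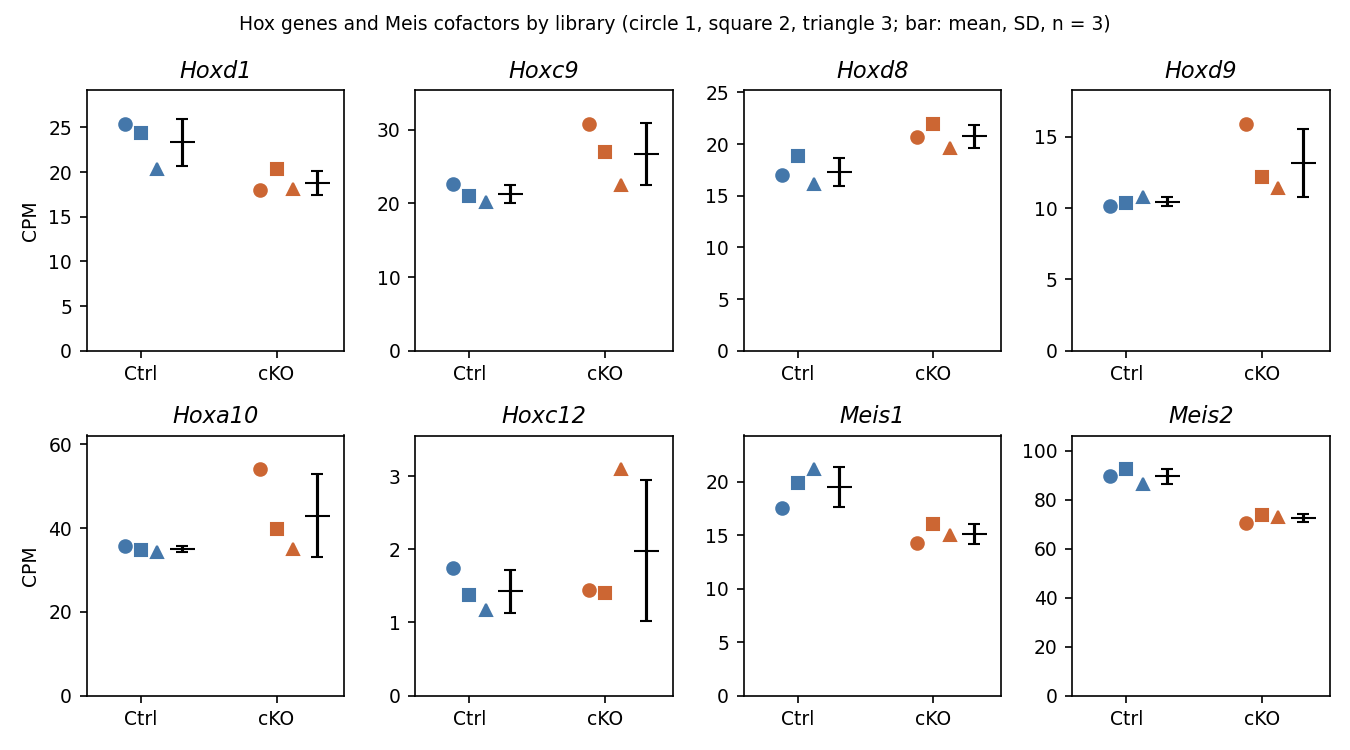
CPM (linear axis from 0) of Hoxd1, Hoxc9, Hoxd8, Hoxd9, Hoxa10 and Hoxc12 and of the cofactor genes Meis1 and Meis2 in the 3 Ctrl (blue) and 3 cKO (orange) libraries, with circle, square and triangle for replicates 1, 2 and 3 and a bar for mean and SD. Hoxd1, Meis1 and Meis2 lie lower in all cKO libraries; Hoxd9 and Hoxa10 are highest in cKO 1 and Hoxc12 in cKO 3.

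The posterior share of the Hox signal was nearly the same in 5 libraries and higher in cKO 1. Groups 9 to 13 made up 22.9%, 23.4% and 23.1% of all Hox TPM in Ctrl 1, 2 and 3 and 30.1%, 23.3% and 22.4% in cKO 1, 2 and 3. Groups 5 to 8 made up 50.4%, 47.3% and 47.0% in Ctrl and 45.0%, 48.7% and 50.0% in cKO, and groups 1 to 4 made up 26.7%, 29.3% and 29.9% in Ctrl and 25.0%, 28.0% and 27.6% in cKO. The mean paralog number weighted by TPM was 6.18 to 6.27 in Ctrl, 6.55 in cKO 1, and 6.24 in both cKO 2 and cKO 3. The posterior share was 2.12 percentage points higher in cKO as a mean (25.3% ± 4.19 against 23.1% ± 0.24, SD, n = 3), and 0.28 points lower without cKO 1. The group means thus differed by less than the SD of cKO, and the difference rested on 1 library. This library was also highest in erythroid and macrophage markers. Among the other 5 libraries the erythroid markers ran from 16200 TPM in cKO 2 to 27538 TPM in Ctrl 3, at posterior shares of 23.3% and 23.1%. The part of these markers in the posterior share of cKO 1 was not tested.

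**Figure D4:**
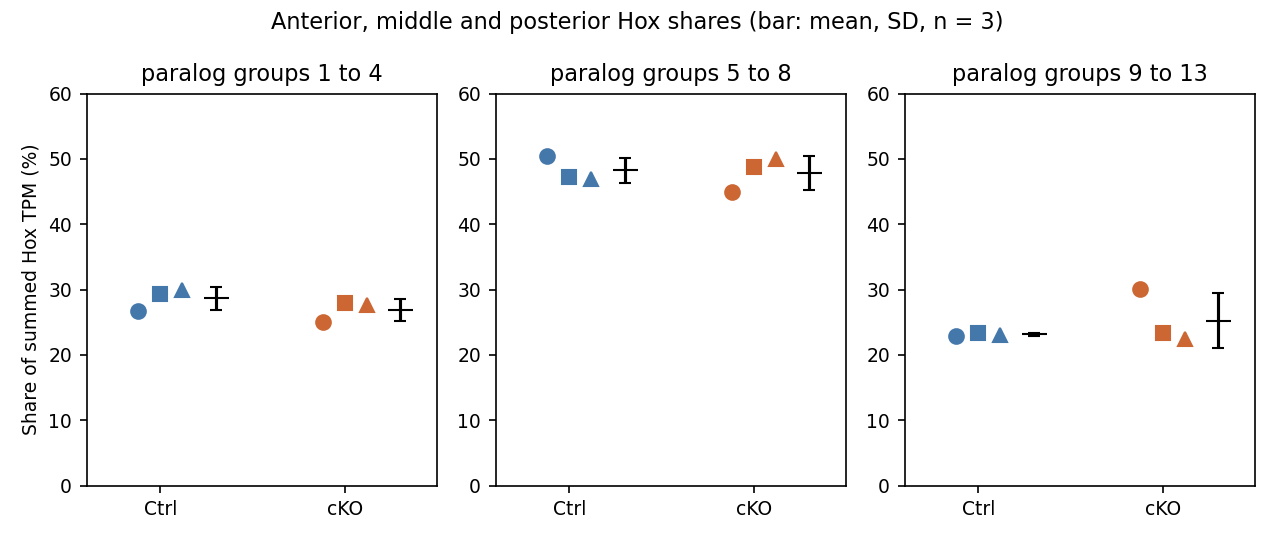
Share of all Hox TPM in paralog groups 1 to 4, 5 to 8 and 9 to 13 in each library (percent), with circles, squares and triangles for replicates 1, 2 and 3 and a bar for mean and SD of 3 libraries. In the right panel cKO 1 (30.1%) stands above the other 5 libraries (22.4% to 23.4%).

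Differences were also taken within each replicate number. In number 1 the median log2 difference of cKO minus Ctrl was -0.16 over the 11 tested genes of groups 1 to 4, -0.25 over the 11 of groups 5 to 8, and 0.52 over the 7 of groups 9 and 10, where 6 of 7 were higher in cKO. Groups 11 to 13 did not go with groups 9 and 10 in number 1: their median was -0.14 and 2 of 6 were higher in cKO. In number 2 these medians were -0.03, 0.08 and 0.10, and in number 3 they were 0.08, 0.27 and 0.05. In groups 5 to 8, cKO was higher for 2 of 11 genes in number 1, and for 10 of 11 in both number 2 and number 3. The lowest differences of groups 1 to 8 in number 1 were Hoxa4 at -0.76, Hoxc5 at -0.75 and Hoxb8 at -0.50 on the log2 scale. In groups 5 to 8, Hoxd8 was higher in cKO by 0.29, 0.22 and 0.27 in numbers 1, 2 and 3, and Hoxb7 by 0.05, 0.01 and 0.14.

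**Figure D5:**
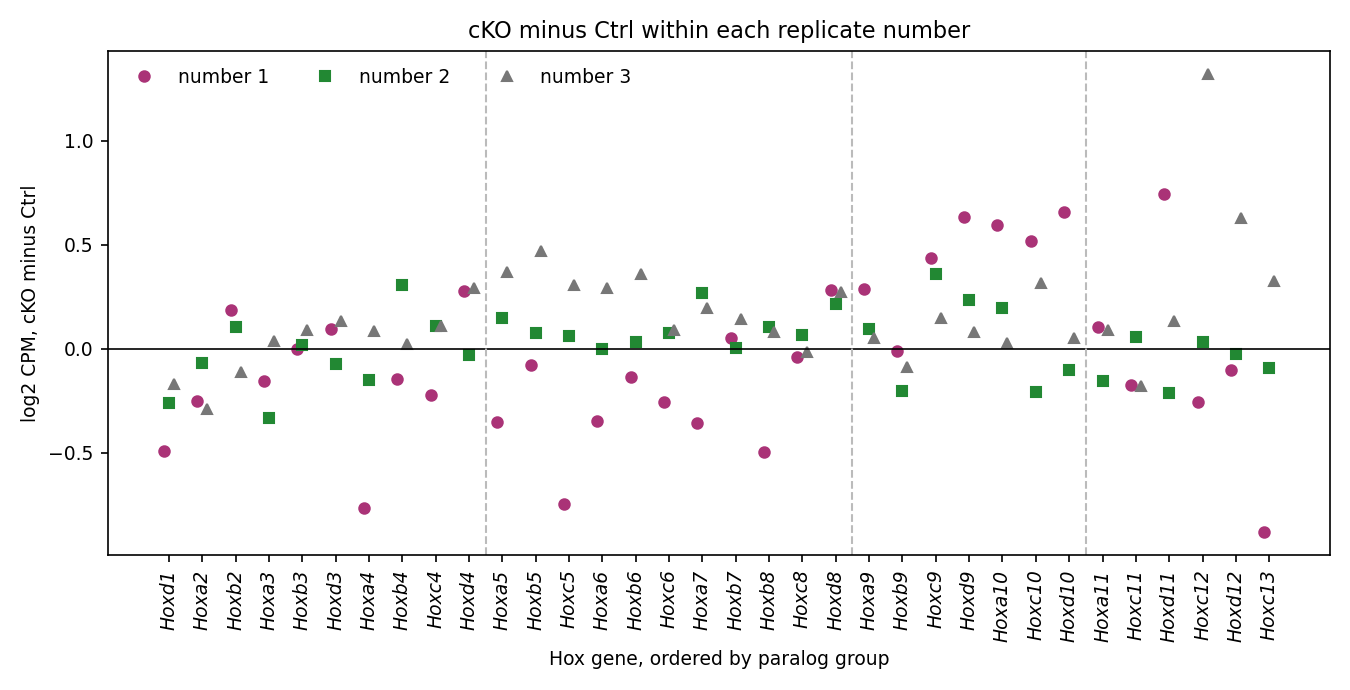
Difference in log2 CPM, cKO minus Ctrl, within replicate number 1 (circles), 2 (squares) and 3 (triangles) for 34 of the 35 tested Hox genes, ordered by paralog group, with dashed lines after groups 4, 8 and 10. Number 1 is mostly below 0 in groups 1 to 8 and above 0 for 6 of 7 genes of groups 9 and 10, while number 3 is above 0 for 10 of 11 genes of groups 5 to 8.

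Hoxd8, a middle gene of HoxD (gene identifier 15437, chr2:74704615-74707933), stood at 17.0, 18.8 and 16.2 CPM in Ctrl and at 20.7, 21.9 and 19.6 CPM in cKO. All cKO values were above all Ctrl values. The log2 fold change was 0.26 (SE 0.09, edgeR adjusted p 0.306); with the block the edgeR adjusted p was 0.0627, and 0.041 with the block and library totals as scaling. Its neighbours in the paralog group did not share this, with Hoxb8 at a log2 fold change of -0.10 (SE 0.11) and Hoxc8 at 0.01 (SE 0.09).

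The abundant genes of groups 2 to 7 had log2 fold changes near 0 with all libraries together. Hoxb6 had 61.96, 53.8 and 48.8 CPM in Ctrl and 56.4, 55.0 and 62.7 CPM in cKO, overlapping ranges (log2 fold change 0.08, SE 0.09, edgeR adjusted p 0.838). Hoxb3 had 80.2, 93.0 and 92.6 CPM in Ctrl and 80.1, 94.3 and 98.6 CPM in cKO, where the libraries numbered 1 were low in both genotypes. Hoxb7 (0.07, SE 0.08), Hoxb2 (0.07, SE 0.11) and Hoxd4 (0.17, SE 0.12) had no call in either model. Hoxa5, which is needed for cervical and thoracic patterning, had 38.1, 35.2 and 32.0 CPM in Ctrl and 29.8, 39.1 and 41.4 CPM in cKO. It was lowest of all in cKO 1 and highest in cKO 3, and without the libraries numbered 1 it passed with the block (log2 fold change 0.26, edgeR adjusted p 0.017), as did Hoxa7, Hoxb5 and Hoxc9. Hoxa4 had the lowest fitted value after Hoxd1 (-0.28, SE 0.14, edgeR adjusted p 0.514). With the block Hoxa4 passed only without the libraries numbered 3, as did Hoxa10 and Hoxd9. Hoxc10 passed only with the block and without the libraries numbered 2.

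Genes of groups 11 to 13, which pattern sacral and tail levels, included the 3 tested members with the widest range between libraries, Hoxc12, Hoxc13 and Hoxc11, at 19 to 77 counts a library. Counts of Hoxc11 were 73, 48 and 39 in Ctrl against 65, 51 and 36 in cKO, with overlapping groups. Counts of Hoxc12 were 30, 23 and 19 in Ctrl against 25, 24 and 53 in cKO. Only cKO 3 was high, so the log2 fold change was 0.47 with it (SE 0.33, edgeR adjusted p 0.689) and -0.010 without it. Hoxc13, the member of highest paralog number with at least 10 counts in every library, was at 62, 42 and 58 counts in Ctrl against 33, 40 and 77 in cKO (-0.15, SE 0.29). It was lowest in cKO 1, where groups 9 and 10 were highest, and highest in cKO 3. Hoxd12 had 11 to 14 counts in Ctrl and 13, 11 and 19 in cKO.

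Spinal cord markers summed highest in cKO 3, the library where Hoxc12 and Hoxc13 were highest. In cKO 1 their sum was next highest, but Hoxc13 was lowest there, at 33 counts. Of 18 such markers, 17 were in the table and summed to 41, 42 and 46 counts in Ctrl and to 64, 56 and 110 in cKO. Pax6, of neural tube progenitors, rose from 3, 3 and 4 counts in Ctrl to 13, 18 and 15 in cKO also without the block (log2 fold change 2.12, SE 0.39, edgeR adjusted p 0.0449). Lhx1, a gene of spinal interneurons, had 26 counts in cKO 3 and 0 to 2 in the other libraries, and Pax2, also of interneurons, had 17 against 0 to 2. Nkx6-1, of ventral progenitors, made up the largest part of the Ctrl sums and did not go with cKO 3, with Ctrl counts of 30, 19 and 29 against 27, 29 and 16 for cKO. Mnx1, Olig2 and Nkx2-2, of motor neurons and ventral progenitors, had 0 to 2 counts in each library. The 9 cartilage and sclerotome markers, from another tissue known to express Hox genes, summed to 93.6 to 100.3 TPM in Ctrl and 106 to 108 TPM in cKO. Of the 6 tested, none passed without the block. With it 2 were higher, Pax1 (edgeR adjusted p 0.0314) and Col2a1 (0.0499), beside 1.76% of all genes. The 12 connective tissue markers summed to 989 to 1120 TPM in Ctrl and 1068 to 1125 TPM in cKO. The part of spinal cord, cartilage and connective tissue cells in the Hox values was not tested.

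TALE homeodomain proteins of the Pbx, Meis and Pknox families bind DNA together with Hox proteins and sharpen their choice of sites. Of the 9 cofactor genes, 8 had negative log2 fold changes, with a median of -0.12. None passed without the block, and 2 were lower with it, beside 3.56% of all genes. Meis2 stood at 89.7, 92.4 and 86.5 CPM in Ctrl and at 70.7, 73.8 and 73.0 CPM in cKO, with a wide gap between the groups. Its log2 fold change was -0.31 (SE 0.06, edgeR adjusted p 0.0693), and the edgeR adjusted p was 0.00295 with the block. Meis2 also passed the DESeq2 test without the block (adjusted p 0.0216). Meis1 stood at 17.5, 19.9 and 21.1 CPM in Ctrl and at 14.2, 16.1 and 15.0 CPM in cKO, again without overlap (log2 fold change -0.37, SE 0.10, edgeR adjusted p 0.152; 0.0179 with the block). Both blocked calls were lost without the libraries numbered 2 (edgeR adjusted p 0.0658 for Meis1 and 0.0561 for Meis2), and that of Meis1 also without those numbered 3 (0.0913). The changes of Meis1 and Meis2 were in the same direction in 3 of 3 pairs. Meis3, the most abundant cofactor gene at 114 TPM, had -0.12 (SE 0.08).

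Among 15 listed genes of retinoic acid supply and response, the signal that helps to switch on anterior Hox genes, 13 were tested. With the block 1 was higher, beside 1.76% of all genes. This was Crabp1, a cytoplasmic retinoic acid binding protein gene, at 56.4, 56.7 and 49.1 CPM in Ctrl and 73.6, 69.6 and 61.3 CPM in cKO (log2 fold change 0.33, SE 0.09, edgeR adjusted p 0.136; 0.00223 with the block). The receptor genes Rara, Rarb and Rarg had log2 fold changes of 0.01, -0.03 and 0.13. Polycomb proteins keep Hox genes silent outside their domains, and Trithorax proteins keep them active. The 12 genes listed as Trithorax included the histone demethylase genes Kdm6a and Kdm6b. None of the 26 Polycomb and 12 Trithorax genes passed without the block or with it, where 0.481% and 5.33% of all genes did. Their medians were 0.00 and -0.03. The most abundant were Phc2 (0.05, SE 0.09) and Pcgf1 (-0.01, SE 0.10) for Polycomb, and Dpy30 (0.02, SE 0.11) and Men1 (0.02, SE 0.07) for Trithorax.

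Genes flanking the clusters were listed as 13, of which 8 were tested. None passed without the block. With it, Cbx5 beside HoxC (log2 fold change -0.25, SE 0.08; blocked edgeR adjusted p 0.0153) and Lnpk beside HoxD (-0.25, SE 0.07; 0.0114) were lower, and Calcoco1 beside HoxC (0.21, SE 0.07; 0.0361) was higher. Over all genes, 3.56% were lower and 1.76% higher with the block. Cbx5 encodes a heterochromatin protein and Lnpk a protein of the endoplasmic reticulum. Evx1 and Evx2, homeobox genes at the posterior ends of HoxA and HoxD, had 0 to 1 count in every library. Of 17 other axial genes, 13 were in the table. The head gene Otx2 had 0 to 1 count, and the limb-level genes Tbx5 and Tbx4 had 0 to 3 and 0 to 2. Gdf11, a signal that shifts Hox expression to posterior groups at the trunk to tail transition, had 80.3 to 83.4 CPM in Ctrl and 70.3 to 78.6 CPM in cKO, with no overlap (-0.15, SE 0.07, edgeR adjusted p 0.456; 0.119 with the block), and Gmnn, a regulator of DNA replication, had -0.03 (SE 0.11).

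Transcripts overlap inside the clusters, which bears on what a count of one Hox gene holds. By the GENCODE M21 models, 9 members shared exonic bases with another gene on the same strand and 10 with a gene on the opposite strand, 16 members in all. The widest were Hoxb3, with 2250 bases (52.9% of its exonic bases) shared with the antisense gene Hoxb3os, and Hoxd3, with 2225 bases (53.1%) shared with a gene model on its own strand. Hoxa11 shared 800 bases with Hoxa11os. The labels do not state whether the libraries keep strand, so reads of a member and of its antisense partner cannot be told apart. Hoxd1, Hoxc9, Hoxd8, Hoxd9, Hoxa10 and Hoxc12 shared none. All 38 members had whole-number estimated counts in every library.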

How the data were processed

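RNA-seq was analysed in 3 cKO and 3 Ctrl libraries. The authors deposited estimated counts per gene, not normalized, and TPM and FPKM values per library. The submitters' processing notes name RSEM 1.3.1, Bowtie2 2.4.5 and HISAT2 2.2.1, and the builds GRCm38 and mm10, without roles; no annotation is named. The authors' deposited group means were not used. Counts were rounded, filtered with filterByExpr (3633 of 17971 genes removed), scaled by TMM and tested two-sided by quasi-likelihood (edgeR 4.0.16, robust; R 4.3.3). Adjustment was by Benjamini-Hochberg over all genes, at 0.05. CPM use TMM library sizes, and SEs derive from the fold change and its F statistic. FPKM served only as an alternative to TPM for shares. P-values weigh the group difference against the variation between libraries of a group. With the block they weigh it against the variation left after the replicate number. The model was also run on simulated data, in which only genes with higher mean counts were changed. That run does not measure power for low-count Hox genes.

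The replicate numbers of the titles pair the libraries: deviations of same-numbered libraries correlated at 0.328, 0.205 and 0.184, all over 0.1. The model without the block is the main one. Members and lists were chosen with earlier results of these data known. Named members were those called in either model, the most abundant of each paralog group, the 3 with the widest range, and the most posterior with 10 counts in every library; list genes were the called ones, or else the 2 most abundant. Hoxd8, Hoxd9, Hoxb9, Hoxa4, Hoxc5, Hoxd10, Hoxc10, Hoxd12 and the other markers named were added after their values were seen. DESeq2 1.42.0, limma-voom 3.58.1, other scalings and filters, the block and left-out libraries were alternatives. Values of a few single genes are not reported here. Figures used matplotlib 3.10.9.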

Additional observations from a re-analysis of the deposited data

How the results depend on the processing

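The count of Hox genes called was 0 without the block under every scaling, filter and test tried and on leaving out any single library (0 to 0). It was 2 with the replicate block, 2 with the block and DESeq2 size factors, 3 with the block and library totals, and 4, 1 and 5 with the block and without both libraries numbered 1, 2 and 3; leaving out a number was chosen after seeing the data. Over all genes the count was 69, against 44 with library totals, 184 with the DESeq2 test, 128 with no filter, 764 with the replicate block, 799 with the block and library totals, and 731 with the block and DESeq2 size factors. It was 18 to 104 on leaving out single libraries, and 731, 8 and 2 without both libraries numbered 1, 2 and 3 (1252, 260 and 836 with the block). For shares of groups 1 to 4, 5 to 8 and 9 to 13, cKO minus Ctrl moved under 1 SD in every setting. The SD was the larger of the 2 groups. For groups 9 to 13 it was 4.19 points in cKO, widened by cKO 1 itself, against 0.24 in Ctrl. Without cKO 1 the difference of groups 9 to 13 went from 2.12 to -0.28 percentage points, so this SD was no measure of its stability. The shares themselves depend on the scale: on CPM, not per length, they were 33.5%, 40.4% and 26.1% in Ctrl. Values near 0 changed sign with single libraries; the cause was not tested. Over single libraries left out, log2 fold changes ran from -0.034 to 0.16 for Hoxb2, -0.028 to 0.12 for Hoxb3, -0.032 to 0.20 for Hoxa5, -0.16 to 0.021 for Hoxb8, -0.32 to 0.16 for Hoxc11, -0.010 to 0.66 for Hoxc12, -0.60 to 0.084 for Hoxc13, -0.025 to 0.12 for Phc2, -0.12 to 0.058 for Pcgf1, -0.14 to 0.10 for Dpy30, -0.018 to 0.065 for Men1 and -0.080 to 0.056 for Gmnn. Without both libraries numbered 1 they were, without and with the replicate block, 0.0935 and 0.0935 for Hoxb8, 0.18 and 0.16 for Hoxc13, and -0.0986 and -0.0985 for Dpy30, and with the block -0.00060 for Hoxb2. Without both numbered 2 they were 0.067 and 0.061 for Pcgf1 and 0.057 and 0.059 for Gmnn. Without both numbered 3 they were -0.0902 and -0.0968 for Hoxa5, -0.056 and -0.054 for Hoxb6, -0.13 and -0.13 for Hoxc12, and -0.056 and -0.059 for Phc2. With library totals Pcgf1 was at 0.014, and at 0.011 with the block. The SE of Hoxc12, with 19 to 53 counts a library, was 0.33, so small changes of such genes were not detectable at this depth.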
